A study of Mus musculus with 230 samples.

Results

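The genes described here encode the subunits of potassium channels, the membrane proteins that let potassium ions leave or enter a cell. They were chosen by a rule: protein-coding genes whose mouse symbol starts with Kcn, Kcne2 left out, with a mean CPM (counts scaled to library size) of 1 or more in at least 1 of 6 brain regions of mice that had self-administered saline and were killed without a further injection. Of 93 such genes in the table, 79 met the rule, and 66 of the 79 reached 1 CPM in all 6 regions. Kcnh8, Kcnj13 and Kcnk5 reached it in 1 region only, which was BLA, vHipp and VTA in that order, so these genes are members through the region where they were highest. The levels in those control libraries chose the members, so they are described without a test. The members just inside the limit were Kcnq1 (1.199 CPM), Kcnh8 (1.22 CPM) and Kcnk5 (1.27 CPM), and the nearest genes outside it were Kcnk7 (0.549 CPM) and Kcnrg (0.536 CPM), each at its highest region mean. By the same level rule 14284 protein-coding genes of the table would be kept, and the whole table lists 43346 genes.

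RNA was sequenced from the ventral tegmental area (VTA), nucleus accumbens (NAc), dorsal striatum (CPu), basolateral amygdala (BLA), prefrontal cortex (PFC) and ventral hippocampus (vHipp) of male C57BL/6J mice with a history of cocaine or saline self-administration. CC, CS, SC and SS mice then had 30 d of withdrawal and an intraperitoneal injection 1 h before tissue was taken. The first letter gives the substance self-administered and the second the one injected, C for cocaine and S for saline. C24 and S24 mice were killed after 24 h of withdrawal with no injection, after cocaine and after saline. There were 7 CC, 6 CS, 8 SC, 8 SS, 8 C24 and 8 S24 mice, going by the number in each library's name, and 3 to 8 libraries per region and group. The tissue is bulk, so for every value below fewer cells of a type and less RNA per cell cannot be told apart.

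The 230 libraries held between 11866570 and 42135683 counts. In 18 of them the profile stood apart from the median of their region. Some values and counts below are also given without these libraries, while the counts of members called in region comparisons include them. Markers were read for VTA, NAc and CPu, and none that define BLA, PFC or vHipp are given here. The 6 dopamine neuron genes summed to 2265 to 7430 CPM in VTA libraries and had medians of 26.2 to 54.97 CPM elsewhere. The 6 markers of striatal projection neurons had medians of 2776 CPM in NAc (1567 to 3774 CPM) and 5307 CPM in CPu (3243 to 5913 CPM). The same striatal sum reached 2016 CPM in 1 BLA library, which lies within the NAc range, and 995 CPM in PFC. Its median was 679 CPM in BLA, and its level is given beside the BLA results below. Oligodendrocyte markers were also uneven, with a median sum of 15930 CPM in VTA and 6331 CPM in CPu.

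Potassium channels set the resting potential and end action potentials, and which subunits a neuron makes shapes how fast and how regularly it can fire. Voltage-gated (Kv), calcium-activated, inward rectifier (Kir) and tandem-pore (K2P) channels share a pore lined by a signature stretch that selects potassium over sodium. Accessory subunits, such as Kv beta subunits, the calcium-sensing KChIPs, the KCNEs and the BK beta subunits, lack a pore and change the gating or traffic of the channels they join. Modifier Kv subunits (Kv5, Kv6, Kv8 and Kv9) carry a pore but form no working channel on their own and change Kv2 channels they join.

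The signature is shown because it is the one sequence that most members share and that separates pore subunits from accessory ones. It was searched as 5 codons in frame: serine or threonine, then valine, isoleucine, threonine or leucine, then glycine, then tyrosine or phenylalanine, then glycine. The longest annotated coding sequence held it in 67 of the 79 members (84.8%), against 184 of 21173 protein-coding genes (0.869%). The 12 members without it were all accessory by family: 3 Kv beta subunits, 4 KChIPs, 3 BK beta subunits and 2 KCNEs. A second copy was present in 8 members, and all 8 were among the 10 K2P members, with Kcnk1 and Kcnk6 at 1 copy.

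The windows below are 45 bases of coding strand for members that the results turn on, in GRCm38, with the 5 signature codons in capitals.
Kcna5 (chr6:126533730-126533774, minus strand, exon 1 of 1): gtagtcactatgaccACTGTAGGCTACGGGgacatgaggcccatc
Kcnc4 (chr3:107447784-107447828, minus strand, exon 2 of 4): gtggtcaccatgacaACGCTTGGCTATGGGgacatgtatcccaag
Kcng4 (chr8:119625895-119625939, minus strand, exon 3 of 4): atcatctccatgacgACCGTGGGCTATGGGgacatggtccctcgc
Kcns3 (chr12:11091560-11091604, minus strand, exon 3 of 3): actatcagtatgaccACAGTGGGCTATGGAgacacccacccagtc
Kcnh3 (chr15:99232914-99232958, plus strand, exon 8 of 15): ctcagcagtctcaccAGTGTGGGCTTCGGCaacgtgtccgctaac
Kcnh4 (chr11:100750278-100750322, minus strand, exon 8 of 17): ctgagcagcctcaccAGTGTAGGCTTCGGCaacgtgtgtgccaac
Kcnj4 (chr15:79485352-79485396, minus strand, exon 2 of 2): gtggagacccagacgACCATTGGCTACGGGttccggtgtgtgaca
Kcnj6 (chr16:94832762-94832806, minus strand, exon 3 of 4): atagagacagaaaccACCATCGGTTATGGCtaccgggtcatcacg
Kcnk13, first copy (chr12, plus strand, across the join of exons 2 and 3): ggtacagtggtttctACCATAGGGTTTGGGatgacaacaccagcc
Kcnk13, second copy (chr12:100061361-100061405, plus strand, exon 3 of 3): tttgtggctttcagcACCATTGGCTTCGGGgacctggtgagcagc

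Which region a library came from accounted for most of the spread of these genes. Over the 187 libraries without S24, the median member had 84.3% of its sum of squares on the log2 scale between regions, 2.23% between conditions within a region and 13.7% within groups. Over the 18807 genes tested the median shares were 51.4%, 7.46% and 38.0%, and over protein-coding genes meeting the same level rule 57.8%, 6.55% and 33.1%. The share between regions was 97.4% for Kcnh3 and 96.7% for Kcnip2, and 11.2% for Kcne4 and 11.3% for Kcnj13. The highest region mean was at least 2 times the lowest for 72 members and at least 10 times for 22. The highest mean lay in VTA for 24 members, CPu for 21, PFC for 14, vHipp for 12, BLA for 4 and NAc for 4. In the S24 libraries the highest region was the same for 72 of 79 members.

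**Figure D1:**
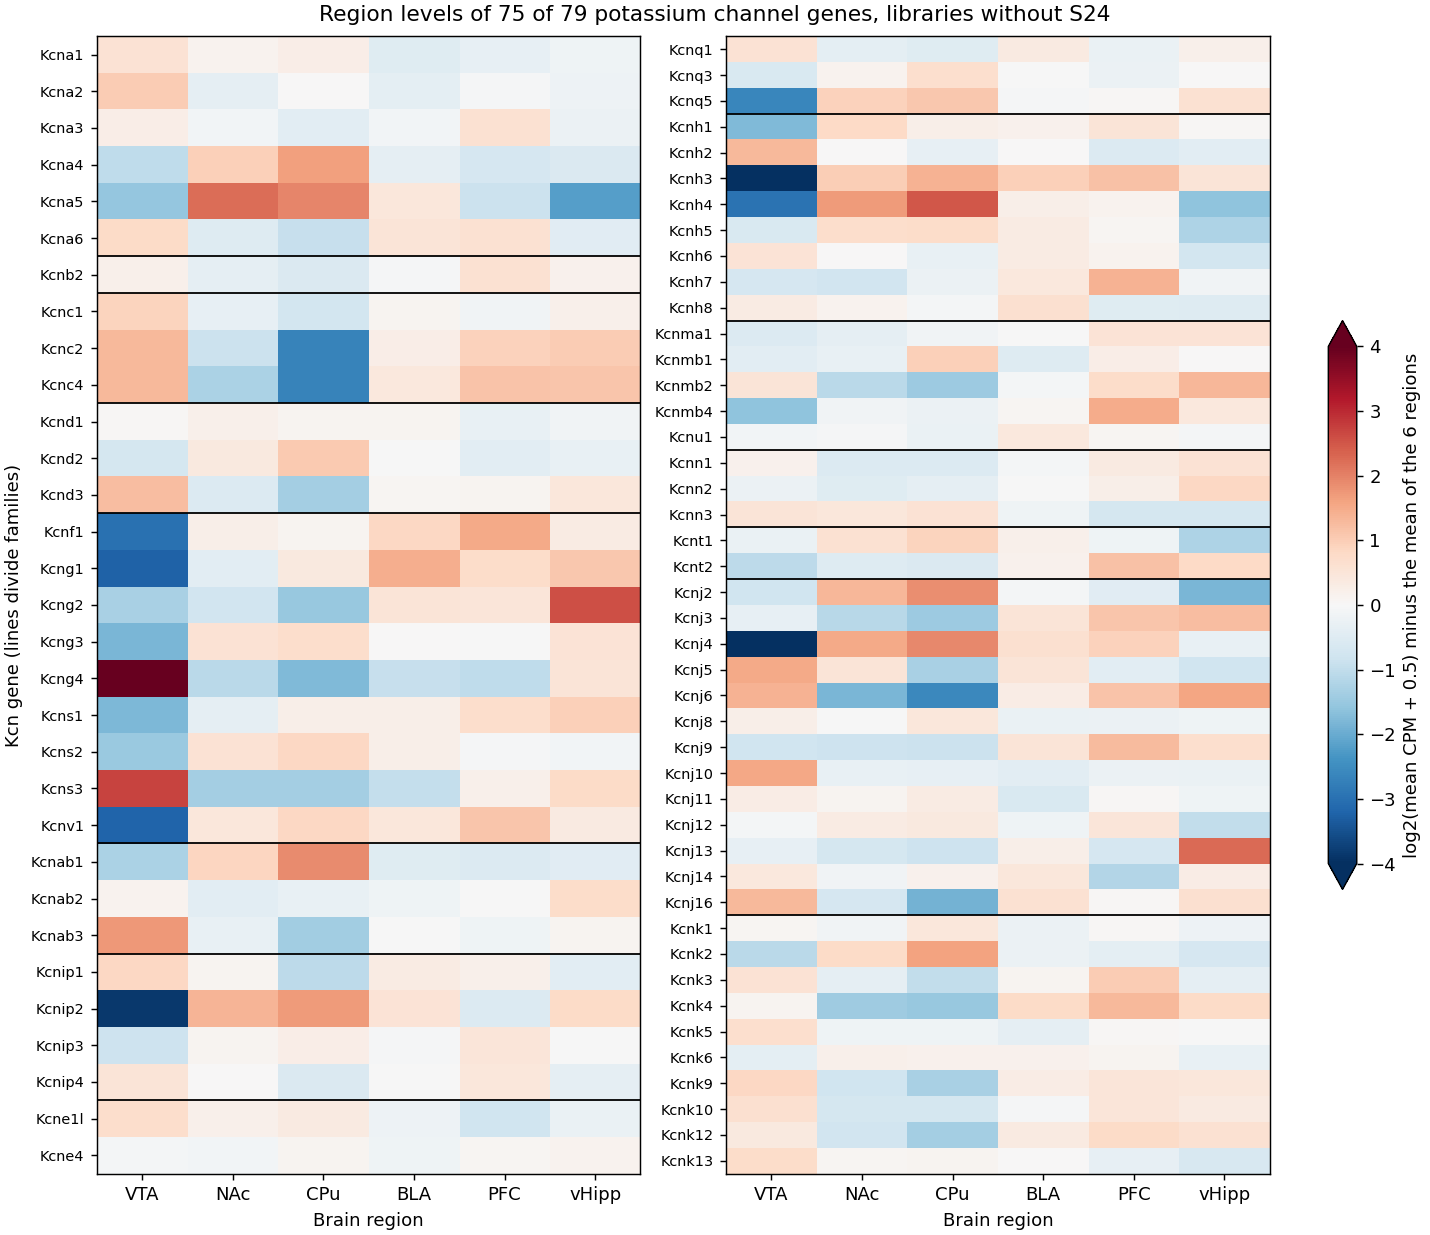
Mean level of 75 of the 79 members (rows, by family) in 6 regions (columns), as log2 of mean CPM plus 0.5 minus the mean of the 6 regions, over libraries without S24. Red is above and blue below the gene's own mean. The VTA column holds both extremes, red at Kcng4 and blue at Kcnh3 and Kcnj4.

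Between genes, levels were compared per kilobase of exon. In VTA the highest was Kcnj10, the Kir4.1 channel that glia use to take up potassium, at 108 ± 12.02 CPM per kb (SD, n = 25). Among the next were the Kv beta subunit Kcnab2 (74.6 ± 9.01), the axonal Kv1 subunit Kcna1 (71.9 ± 16.3) and the K2P channel Kcnk1 (36.9 ± 3.47). In NAc, Kcnip2, the KChIP that supports the transient A-type current, had 101 ± 16.3 CPM per kb (SD, n = 31), and in CPu 127 ± 9.63 (SD, n = 34). Kcnj4, the strong inward rectifier Kir2.3, came second in both, at 80.4 ± 14.7 CPM per kb in NAc and 106.6 ± 13.96 in CPu. Kcnab1, another Kv beta subunit, came next in CPu (66.4 ± 7.80). Kcnab2 led in BLA (60.0 ± 7.24 CPM per kb, n = 31), PFC (66.9 ± 7.86, n = 34) and vHipp (111.2 ± 21.2, n = 32). PFC alone had the modifier Kcnf1 (55.2 ± 10.02 CPM per kb), the G-protein-gated Kcnj9 (39.9 ± 4.85) and the KChIP Kcnip3 (39.5 ± 4.89) among its 5 highest.

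VTA against the mean of the other 5 regions gave the most calls of the 6 region comparisons. In edgeR's quasi-likelihood test on libraries without S24, with a call at an adjusted p under 0.05 and a log2 fold change of at least 1 either way, 18 members were higher in VTA and 20 lower. Of all 18807 genes tested, 9.65% were called higher and 9.78% lower, and 17.3% of protein-coding genes meeting the level rule were called in either direction, against 48.1% of members. Among the 66 members at 1 CPM in every S24 region, 31 were called (47.0%). The median absolute log2 fold change was 0.96 over members and 0.40 over all genes tested. With no fold limit, 76 members (96.2%) were called, against 80.8% of all genes, so at this number of libraries the fold limit sets the counts.

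Kv3 pore subunits open fast and allow high firing rates. Kcnc2 had 93.9, 153 and 204.1 CPM (lowest, median, highest) in VTA, with medians of 8.24 to 124 CPM in the other regions (log2 fold change 1.60 ± 0.08, SE, adjusted p = 1.4e-45). Kcnc4 had 78.9, 103 and 112 CPM in VTA and medians of 5.23 to 93.5 CPM elsewhere (1.595 ± 0.08, adjusted p = 3.0e-42). Both were called higher in VTA, and both overlapped other regions. Of the modifier Kv subunits, 2 of 9 were higher in VTA and 7 lower, and their median log2 fold change was −2.46.

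The 2 modifiers higher in VTA were Kcng4 (Kv6.4) and Kcns3 (Kv9.3). Kcng4 had 15.8, 79.6 and 125.3 CPM (lowest, median, highest) in 25 VTA libraries, against 0.181 to 11.2 CPM in the other regions. Every VTA library lay above every other one, and the log2 fold change was 5.62 ± 0.09 (SE, adjusted p = 4.0e-110). Kcns3 had 31.1, 42.0 and 59.5 CPM in VTA, against 0.781 to 13.7 CPM elsewhere. Its groups did not overlap either, and its log2 fold change was 3.43 ± 0.05 (adjusted p = 1.2e-121).

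Among modifiers lower in VTA, Kcng1 (Kv6.1) had 2.41, 3.73 and 6.93 CPM in VTA and 17.8 to 236 CPM in the other regions (log2 fold change −4.05 ± 0.13, adjusted p = 1.5e-67). Kcnv1 (Kv8.1) had 1.89, 3.21 and 12.3 CPM in VTA and 24.5 to 130 CPM elsewhere (log2 fold change −4.02 ± 0.12, adjusted p = 1.6e-73). For both genes every VTA library was below every other library. The Kv2 pore subunit Kcnb2, of the delayed rectifiers that modifiers join, was not called (0.25 ± 0.06).

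The largest differences downward in VTA were in Kcnh3 and Kcnj4. Kcnh3 encodes Kv12.2, a voltage-gated channel of the ELK group known from forebrain neurons, and had 0.457, 1.24 and 19.2 CPM in VTA, against 76.6 to 243 CPM in the other 5 regions. No library overlapped, and the log2 fold change was −6.56 ± 0.16 (adjusted p = 1.9e-86). Kcnj4 had 0.263, 0.878 and 25.5 CPM in VTA and 24.7 to 290 CPM elsewhere (log2 fold change −6.47 ± 0.20, adjusted p = 8.7e-70), and its groups touched at 1 VTA library. Kcnip2 had 5.23, 6.82 and 53.7 CPM in VTA and 67.6 to 502 CPM elsewhere (log2 fold change −4.75 ± 0.13, adjusted p = 1.2e-79). Kcnh4, the related Kv12.3 channel, had a median of 1.08 CPM in VTA, but vHipp was close to it at 3.10 CPM and the remaining medians were 13.9 to 78.6 CPM (log2 fold change −3.997 ± 0.16, adjusted p = 2.3e-56).

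The VTA maxima of Kcng1, Kcnv1, Kcnh3, Kcnj4, Kcnip2 and Kcnh4 all came from 1 library of group SC. It had 19.2 CPM of Kcnh3 and 25.5 CPM of Kcnj4, where the other 24 VTA libraries had at most 2.10 and 1.53 CPM. Its striatal markers summed to 535 CPM and its forebrain glutamatergic markers to 425 CPM, against at most 190 and 217 CPM in the other 24, and its part in these values was not tested. Without the 18 libraries that stand apart, which include it, the log2 fold change was −7.04 for Kcnh3 and −7.15 for Kcnj4.

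Inward rectifiers were mixed, with 4 of 13 higher in VTA and Kcnj4 the 1 called lower. Kcnj10 had 434, 598 and 671 CPM in VTA, against 98.5 to 280 CPM in the other regions, with no overlap (log2 fold change 1.86 ± 0.04, adjusted p = 2.1e-87). Markers of astrocytes, which make this channel, summed to a median of 2119 CPM in VTA and 1473 to 2442 CPM in the other regions, and oligodendrocyte markers were at the level given above. The part of glial content was not tested. Kcnj5 (GIRK4) and Kcnj6 (GIRK2), subunits of channels opened by G-protein-coupled receptors, had log2 fold changes of 2.35 ± 0.13 (adjusted p = 2.9e-41) and 1.83 ± 0.09 (adjusted p = 2.5e-43). Both overlapped other regions. Kcnj5 had 2.37, 5.33 and 11.2 CPM in VTA, with medians of 0.312 to 2.45 CPM elsewhere. For Kcnj6 the VTA median of 25.7 CPM was below that of vHipp (31.7 CPM) and above those of PFC (21.7 CPM), BLA (12.2 CPM), NAc (2.02 CPM) and CPu (0.900 CPM). The Kv beta subunit Kcnab3 had 35.6, 68.6 and 84.7 CPM in VTA and medians of 6.71 to 22.3 CPM elsewhere (log2 fold change 2.17 ± 0.07, adjusted p = 9.1e-69).

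**Figure D2:**
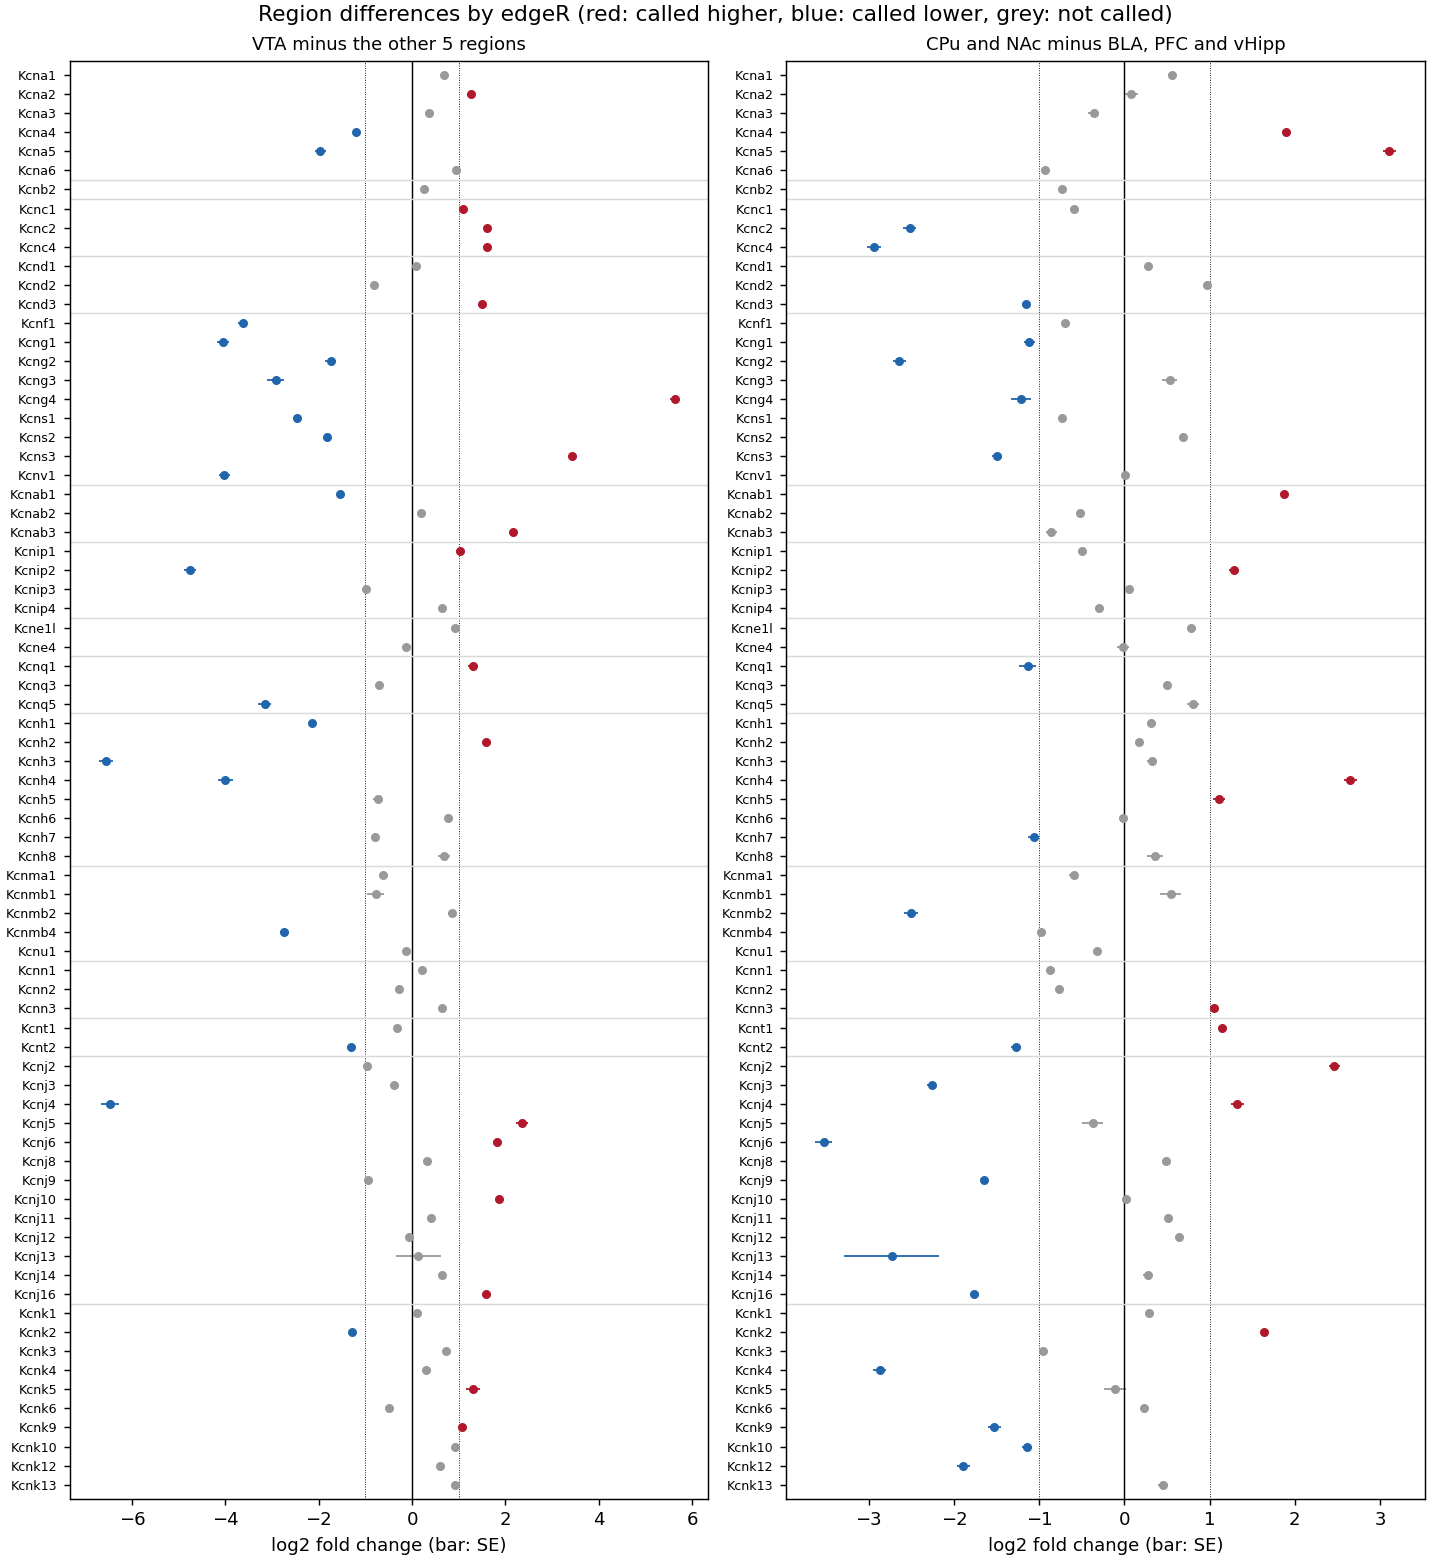
Log2 fold change with its SE for 75 of the 79 members, for VTA minus the other 5 regions (left) and for CPu and NAc minus BLA, PFC and vHipp (right). Red members were called higher, 17 on the left and 11 on the right, blue ones lower, 19 and 20, and grey ones were not called; dotted lines mark 1 and −1.

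CPu and NAc together, set against BLA, PFC and vHipp, had 11 members higher and 21 lower. Over all genes tested 4.94% were higher and 8.45% lower, and 11.5% of protein-coding genes meeting the level rule were called, against 40.5% of members and 27 of the 66 members at 1 CPM in every S24 region (40.9%). With no fold limit 72 members (91.1%) were called, against 78.6% of all genes. The median absolute log2 fold change was 0.79 over members and 0.26 over all genes.

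Members higher in the striatal regions came from several families. Kcna5, the Kv1.5 delayed rectifier, had 40.7, 59.2 and 76.4 CPM (lowest, median, highest) in NAc and 29.5, 48.8 and 57.6 CPM in CPu, against medians of 18.5 CPM in BLA, 5.56 CPM in PFC and 2.07 CPM in vHipp. Its log2 fold change was 3.11 ± 0.07 (SE, adjusted p = 9.1e-88), and the ranges met at the CPu minimum and the BLA maximum of 30.8 CPM. Kcna4 (Kv1.4, an A-type subunit) had 45.6 to 128 CPM in the striatal regions and 10.9 to 37.7 CPM in the other 3, with no overlap (log2 fold change 1.89 ± 0.05, adjusted p = 3.6e-84). Kcnab1 had 204.7 to 666 CPM against 71.4 to 196 CPM, also with no overlap (1.87 ± 0.04, adjusted p = 9.4e-87).

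Kcnh4 had medians of 45.8 CPM in NAc and 78.6 CPM in CPu, against 13.9, 14.97 and 3.10 CPM in BLA, PFC and vHipp (log2 fold change 2.65 ± 0.07, adjusted p = 8.2e-77). Kcnj2 (Kir2.1), which with Kcnj4 carries the inward rectification that holds striatal projection neurons at rest, had medians of 60.4 and 93.6 CPM in NAc and CPu, against 21.9, 17.4 and 6.42 CPM in BLA, PFC and vHipp (2.46 ± 0.07, adjusted p = 2.6e-77). Kcnk2 (TREK-1, a K2P channel opened by stretch and lipids) had 53.1 to 210 CPM in the striatal regions and 25.3 to 76.6 CPM in the others (1.64 ± 0.04, adjusted p = 4.4e-87). A gene on the other strand overlaps 12.2% of Kcnk2.

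The largest difference downward in the striatal regions was Kcnj6, at 0.537, 2.02 and 5.05 CPM in NAc and 0.407, 0.900 and 5.16 CPM in CPu, against medians of 12.2, 21.7 and 31.7 CPM in BLA, PFC and vHipp. Its log2 fold change was −3.53 ± 0.10 (adjusted p = 4.4e-77), and the ranges overlapped through BLA, where the lowest library had 2.15 CPM. Of the Kv3 subunits, Kcnc4 (−2.94 ± 0.08, adjusted p = 4.2e-77) and Kcnc2 (−2.52 ± 0.07, adjusted p = 1.9e-73) were called lower. Kcnc4 had a median of 14.3 CPM in NAc and 5.23 CPM in CPu, against 56.1, 93.5 and 90.96 CPM in BLA, PFC and vHipp.

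Kcnk4 (TRAAK, another stretch-sensitive K2P channel) had 0.477 to 2.10 CPM in the striatal regions and 3.13 to 14.97 CPM in the other 3, with no overlap (log2 fold change −2.87 ± 0.07, adjusted p = 1.3e-83). The gene Catsperz on the same strand overlaps 13.1% of its exons. Kcng2, a modifier, had medians of 2.32 CPM in NAc and 0.881 CPM in CPu, against 6.15, 6.35 and 26.4 CPM in BLA, PFC and vHipp (−2.64 ± 0.08, adjusted p = 1.9e-73).

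Kcnj13 (Kir7.1), a channel of the choroid plexus epithelium, was also called (−2.73 ± 0.56, adjusted p = 4.6e-06), but its level rested on a few libraries. The log2 fold change was −1.67 without the libraries that stand apart and −1.325 with limma voom. Kcnj13 met the level rule through vHipp alone, so its difference from vHipp goes with how it was chosen. It reached 1 CPM in no NAc, CPu or PFC library, and in 2 of 31 BLA, 4 of 32 vHipp and 2 of 25 VTA libraries. The 4 vHipp values were 57.3, 55.1, 8.10 and 4.68 CPM, and the first 3 of those libraries had 19390, 16020 and 9139 CPM of Ttr, the choroid plexus transthyretin, where vHipp libraries under 1 CPM of Kcnj13 had at most 78.9 CPM. The fourth had 3.02 CPM of Ttr, and Gigyf2, on the other strand, overlaps 49.1% of Kcnj13. The part of choroid plexus tissue was not tested.

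**Figure D3:**
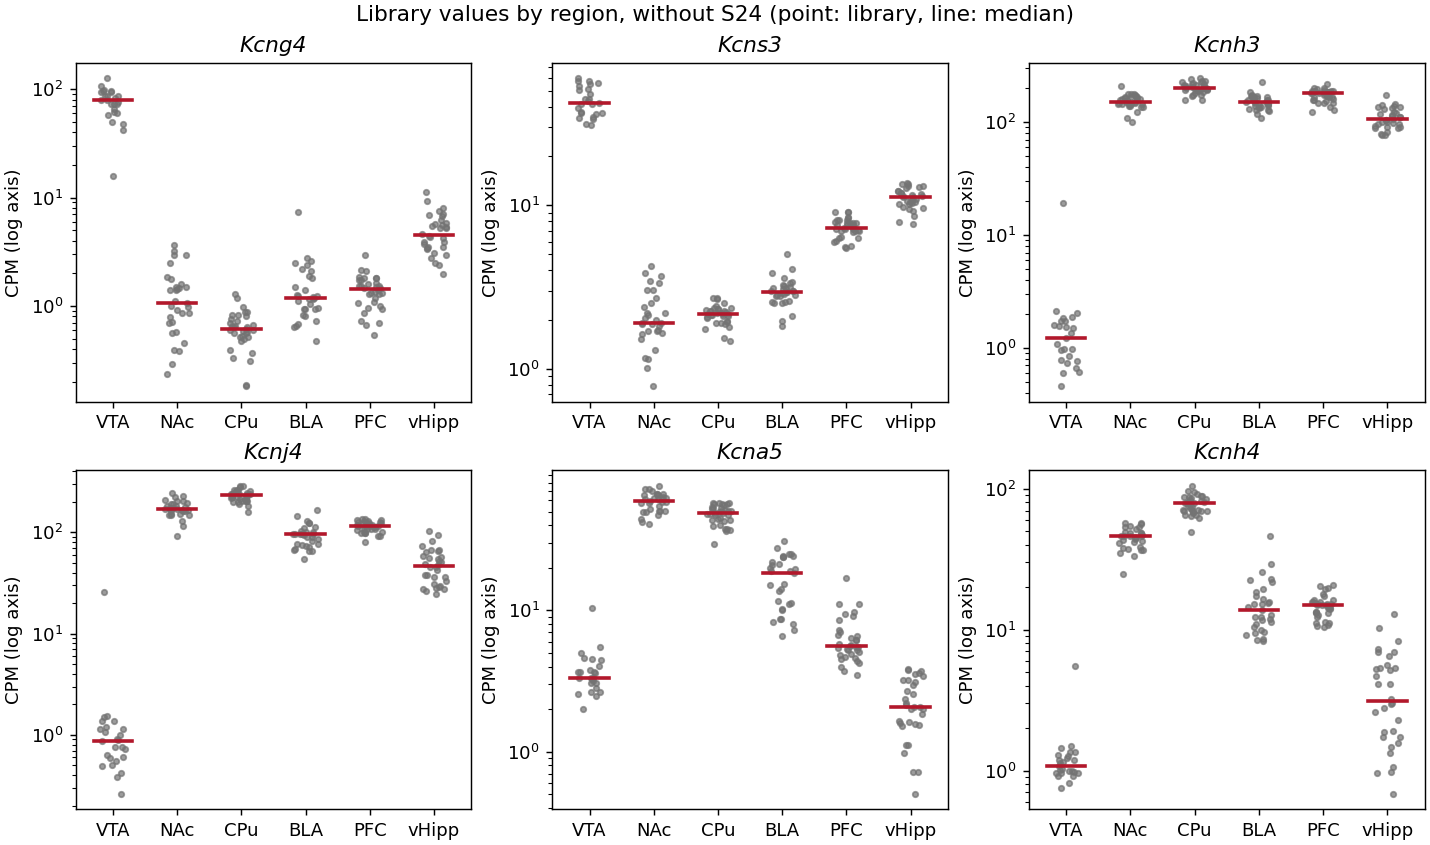
CPM on a log axis of 6 members in every library without S24 by region (points), with the median (line). VTA libraries lie above all others for Kcng4 and Kcns3 and below all others for Kcnh3. Kcna5 and Kcnh4 are highest in NAc and CPu, and 1 VTA library, of group SC, stands above the rest for Kcnh3, Kcnj4 and Kcnh4.

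NAc and CPu differed less: 8 members were higher in NAc and 2 lower, where 3.5% of all genes tested were higher, 2.59% lower, and 5.02% of protein-coding genes meeting the level rule were called, against 7 of the 66 members at 1 CPM in every S24 region (10.6%). Kcnj5 had the largest difference, at 0.754, 1.995 and 6.26 CPM (lowest, median, highest) in NAc and 0.0489, 0.312 and 1.04 CPM in CPu (log2 fold change 2.73 ± 0.20, SE, adjusted p = 3.0e-27). Both Kv3 genes low in the striatum were higher in NAc, Kcnc2 by 1.86 ± 0.11 (adjusted p = 7.5e-36) and Kcnc4 by 1.48 ± 0.12 (adjusted p = 7.5e-24). Kcnc2 had a median of 31.1 CPM in NAc and 8.24 CPM in CPu, with overlap. Kcnj16 (Kir5.1, a partner of Kir4.1), Kcnip1 and Kcnab3 followed with log2 fold changes of 1.29 ± 0.08, 1.204 ± 0.07 and 1.12 ± 0.10. Lower in NAc were Kcnab1, at 204.7 to 356 CPM against 366 to 666 CPM in CPu with no overlap (−1.03 ± 0.07, adjusted p = 1.6e-29), and the BK beta subunit Kcnmb1, with medians of 0.601 CPM in NAc and 2.27 CPM in CPu (−1.77 ± 0.19, adjusted p = 2.7e-16).

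In vHipp against PFC 6 members were higher and 13 lower, where 4.85% of all genes were higher, 4.96% lower and 8.3% of protein-coding genes meeting the level rule were called, against 15 of those 66 members (22.7%). Kcng2 had 13.8, 26.4 and 44.6 CPM in vHipp and 3.60, 6.35 and 8.75 CPM in PFC, without overlap (log2 fold change 2.16 ± 0.10, adjusted p = 8.9e-46). The inward rectifier Kcnj14 (1.74 to 4.02 CPM in vHipp, 0.333 to 1.72 CPM in PFC, 1.995 ± 0.09) did not overlap either. Kcnip2 (1.32 ± 0.09) and Kcng4 (1.81 ± 0.16) were higher in vHipp with overlap. Kcnj13 was called at 4.20 ± 0.63 on the few libraries above, and had 1.275 without the libraries that stand apart and 1.71 with limma voom. It met the level rule through vHipp alone, so its higher level there goes with how it was chosen. Of the 8 EAG, ERG and ELK genes, 4 were lower in vHipp and none higher. They included Kcnh4 (−2.004 ± 0.13), the ERG3 channel Kcnh7 (−1.55 ± 0.10) and the EAG2 channel Kcnh5 (−1.45 ± 0.12). Kcnj12 (Kir2.2, −1.59 ± 0.08), Kcna5 (−1.57 ± 0.13) and Kcnj2 (−1.50 ± 0.11) completed the 6 largest. Kcnh7 had a median of 28.7 CPM in vHipp and 97.2 CPM in PFC.

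BLA had 6 members higher and 4 lower than PFC (4.92% and 3.64% of all genes; 6.47% of protein-coding genes meeting the level rule), and 8 higher and 7 lower than vHipp (5.25% and 4.99%; 8.45%). Of the 66 members at 1 CPM in every S24 region, 4 were called against PFC (6.06%), which is not above the 6.47% of protein-coding genes, and 9 against vHipp (13.6%). Against PFC, BLA was higher in Kcnj14 (2.19 ± 0.09, no overlap), the Kv12.1 channel Kcnh8 (1.81 ± 0.15), Kcna5 (1.35 ± 0.11), Kcnj5 (1.204 ± 0.18), the KvLQT1 channel Kcnq1 (1.19 ± 0.14) and Kcnip2 (1.06 ± 0.09). Kcnh8 met the level rule through BLA alone, so its higher level there, against PFC and against vHipp, goes with how it was chosen. Kcna5 and Kcnip2 were also called higher in CPu and NAc. That comparison shares the PFC libraries, so a low PFC level adds to both calls. The striatal marker sum had medians of 679 CPM in BLA and 181 CPM in PFC, and its part in these values was not tested. BLA was lower in the neuronal BK beta subunit Kcnmb4 (−1.53 ± 0.08), Kcns3 (−1.27 ± 0.07), Kcnmb1 (−1.27 ± 0.19) and the sodium-activated channel Kcnt2 (−1.02 ± 0.09). For Kcnmb4, at 1.87 to 3.90 CPM in BLA and 4.73 to 12.2 CPM in PFC without overlap, antisense genes overlap 31.5% of the exons. Kcnmb1 fell short of the fold limit without the libraries that stand apart (−0.94) and with limma voom (−0.95).

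Against vHipp, the members highest in BLA were Kcna5 (6.58 to 30.8 CPM in BLA, 0.506 to 3.82 CPM in vHipp, no overlap, 2.91 ± 0.13), Kcnh4 (2.06 ± 0.13), Kcnh8 (1.99 ± 0.16), Kcnj5 (1.87 ± 0.19), Kcnj2 (1.84 ± 0.11) and Kcnh5 (1.75 ± 0.12). Of these, Kcna5, Kcnh4, Kcnj2 and Kcnh5 were also among the 11 members called higher in CPu and NAc. That comparison also set its regions against vHipp, so a low vHipp level adds to both calls and the overlap is partly built in. The striatal marker sum had medians of 679 CPM in BLA and 52.5 CPM in vHipp, and its part in these values was not tested. Lower in BLA were Kcng2 (−2.15 ± 0.11), Kcns3 (−1.88 ± 0.08), Kcng4 (−1.75 ± 0.16), the BK beta subunit Kcnmb2 (−1.58 ± 0.11) and Kcnj6 (−1.35 ± 0.12). Kcnj13 was called lower too (−2.76 ± 0.57), but was 0.17 without the libraries that stand apart, which turned its direction. As a member through vHipp alone, its lower level in BLA also goes with how it was chosen.

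Across the 6 region comparisons 58 of 79 members were called at least once (73.4%) and 21 at least 3 times (26.6%). Of all genes tested 31.8% were called at least once and 10.8% at least 3 times, and of protein-coding genes meeting the level rule 27.2% and 8.9%. Among the 66 members at 1 CPM in every S24 region the counts were 46 (69.7%) and 15 (22.7%). The 21 never called included Kcna1 and Kcnab2, which were among the highest levels in most regions, together with the BK pore subunit Kcnma1, Kcnd2 of the A-type current, the SK subunits Kcnn1 and Kcnn2, and the ATP-sensitive pore subunits Kcnj8 and Kcnj11. Of 15 partner genes outside the Kcn symbols, 14 were tested. In VTA 5 were higher and none lower: the pacemaker channels Hcn4 (2.48), Hcn3 (1.56) and Hcn2 (1.38) and the BK gamma subunits Lrrc55 (1.58) and Lrrc38 (1.19).

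No member passed the threshold in any comparison of cocaine with saline. Over all 6 regions, with limma and the mouse as a block, 0 of 79 members were called at an adjusted p under 0.05 in each of 7 contrasts. Unadjusted p-values under 0.05 numbered 6 in C24 against S24, where 0.851% of all genes were called, 3 in CS against SS (0.0581% of all genes called) and 5 in SC against SS (0.111%). They numbered 2 in CC against CS (0%), 4 in CC against SC (0.306%), 4 in CC against SS (0.0317%) and 3 in the interaction of history and injection (0.0423%). The shares of all genes are at an adjusted p under 0.05, so they are no reference for the unadjusted counts. The share of all genes at an unadjusted p under 0.05 is not given here, and no excess is read from these counts. The median SE of a member's log2 fold change was 0.07 to 0.11, and differences of that size were not detectable. With 1 mean per mouse the count was also 0 in each contrast, with 2 to 4 unadjusted p-values under 0.05. C24 against S24 and SS against S24 share the S24 libraries that chose the members.

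The members with the smallest p included Kcne4, Kcnj2, Kcnj11 and Kcnip1. Kcne4, an accessory subunit, had 1.12, 1.34 and 2.12 CPM (lowest, median, highest of 8 mouse means) in C24 and 0.859, 1.34 and 1.44 CPM in S24 (log2 fold change 0.28 ± 0.10, SE, adjusted p = 0.30). It also had the smallest p in CS against SS, at 1.31, 1.49 and 1.61 CPM in CS and 0.894, 1.26 and 1.48 CPM in SS (0.30 ± 0.11, adjusted p = 0.95). The ranges overlapped in both. Kcnj2 was −0.23 ± 0.10 in SC against SS (adjusted p = 0.78). Kcnj11, the pore of the ATP-sensitive channel, was −0.16 ± 0.06 in CC against SC (adjusted p = 0.29) and −0.19 ± 0.06 in CC against SS (adjusted p = 0.40). The interaction was −0.24 ± 0.09 for the KChIP Kcnip1 (adjusted p = 1.0).

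Single regions gave the same count. In edgeR 0 members were called in any region for each of the 7 contrasts, from 469 member and region tests each. Unadjusted p-values under 0.05 numbered 11 in C24 against S24 (0.00546% of all genes called in at least 1 region), 23 in CS against SS (0%), 29 in SC against SS (0.0109%) and 14 in CC against CS (0%). They numbered 21 in CC against SC (0.0109%), 11 in CC against SS (0%) and 22 in the interaction (0.00546%). These shares of all genes are again at an adjusted p, so no excess is read from the unadjusted counts. DESeq2 and limma voom called 0 members in each contrast as well. Kcnc2 in vHipp had the smallest p in 3 of them: CS against SS (log2 fold change 0.53 ± 0.14, adjusted p = 0.25), SC against SS (0.44 ± 0.14, adjusted p = 0.50) and the interaction (−0.73 ± 0.20, adjusted p = 0.39). In 3 others it was Kcne4 in VTA for C24 against S24 (1.02 ± 0.28, adjusted p = 0.55), Kcnh8 in VTA for CC against SC (−0.93 ± 0.27, adjusted p = 0.88) and Kcnj11 in vHipp for CC against SS (−0.56 ± 0.17, adjusted p = 0.87). The VTA CS group had 3 libraries, the fewest.

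The 30 d mice differed from the 24 h mice in both histories. In SS against S24, 11 members were higher and 4 lower over the 6 regions (19.0% of members), where 15% of all genes tested were higher and 16.6% lower. In CS against C24, 13 were higher and 6 lower (24.1%), where 17.8% of all genes were higher and 18.6% lower. These shares are not above those of all genes, so the counts show nothing particular to the members. The pairs share no library, and 10 members were called in both with the same sign, 66.7% of the SS against S24 calls and 52.6% of the CS against C24 calls. Over all genes 4427 were called in both with the same sign, 74.1% and 64.2% of the calls, so the members' overlap is not above that of all genes. Withdrawal time, the injection, age and cohort cannot be told apart here. Without the libraries that stand apart, SS against S24 gave 26 members instead of 15. The share of all genes under that setting is not given here, so the comparison with all genes holds for the main fit only.

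Background K2P channels were among the 10 shared members. Kcnk13 (THIK-1), a K2P background channel that microglia are known for, had 8.28, 10.5 and 13.3 CPM (lowest, median, highest mouse mean over regions) in SS and 6.28, 7.46 and 8.86 CPM in S24 (log2 fold change 0.47 ± 0.08, SE, adjusted p = 2.1e-07). It was among the CS against C24 calls, with 8.22, 8.94 and 10.2 CPM in CS and 6.67, 7.69 and 8.53 CPM in C24 (0.25 ± 0.08, adjusted p = 0.011). In SS against S24, 3 of 5 microglial markers were also higher, and the median of the 5 was 0.14 on the log2 scale, but in CS against C24 1 was higher and 2 lower, with a median of −0.12. The part of microglia was not tested. Kcnk1 (TWIK-1) had 74.9, 82.7 and 89.2 CPM in CS and 64.7, 67.6 and 72.01 CPM in C24, with no overlap (0.27 ± 0.05, adjusted p = 2.0e-07), and 0.15 ± 0.04 in SS against S24 (adjusted p = 0.0017).

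The SK channels, opened by calcium after a spike, moved in the same direction. Kcnn3 (SK3) had 40.4, 46.5 and 53.2 CPM in SS and 31.7, 34.4 and 40.0 CPM in S24, with no overlap (log2 fold change 0.39 ± 0.08, adjusted p = 1.6e-05), and was 0.29 ± 0.08 in CS against C24 (adjusted p = 0.0028). Kcnn2 (SK2) was 0.22 ± 0.04 in CS against C24 (adjusted p = 3.6e-06) and 0.17 ± 0.04 in SS against S24 (adjusted p = 0.00025). Its CS mice had 27.9, 31.4 and 36.6 CPM and its C24 mice 25.3, 27.9 and 29.5 CPM, with overlap. Kcnn1 was not called in either.

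Inward rectifiers among the 10 most significant of each contrast were all higher in the 30 d mice. Kcnj2 was 0.42 ± 0.10 (adjusted p = 0.00016) and Kcnj14 0.32 ± 0.08 (adjusted p = 0.00047) in SS against S24. Kcnj12 was 0.23 ± 0.08 in CS against C24 (adjusted p = 0.010). The Kv1 subunit Kcna6 (0.16 ± 0.04, adjusted p = 0.0018) and the accessory gene Kcne1l (0.27 ± 0.07, adjusted p = 0.00073) were higher in SS than S24. A gene on the other strand, Gm26673, overlaps 39.6% of Kcna6. In CS against C24, Kcnf1 had 86.9, 93.6 and 117 CPM in CS and 70.6, 77.0 and 85.5 CPM in C24, with no overlap (0.30 ± 0.07, adjusted p = 0.00039). The EAG1 channel Kcnh1 (0.28 ± 0.07, adjusted p = 0.00083) and Kcnip2 (0.27 ± 0.08, adjusted p = 0.0045) were higher there too. Some of these averages rested on a few regions. The difference in mean log2(CPM + 0.5) of Kcnh1 in CS against C24 was 0.71 in BLA and −0.10 in PFC, and that of Kcnj12 was 0.81 in BLA, 0.32 in VTA, 0.24 in PFC and between −0.01 and 0.00 in the other 3. All 6 striatal markers had values above 0 over the 6 regions in both contrasts, with medians of 0.34 in SS against S24, where 1 was called by limma, and 0.29 in CS against C24, where 0 were called and 1 had an unadjusted p under 0.05. In edgeR's fit of each region their medians were 1.43 and 1.51 in BLA and 0.79 and 0.89 in PFC. In the other regions the medians lay between −0.37 and 0.11. The 6 forebrain glutamatergic markers had medians of −0.32 and −0.16 over the 6 regions, and 0 were called in either contrast. The part of these cells in the values above was not tested.

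Fewer members were lower in the 30 d mice. Kcns1 (Kv9.1, a modifier) had 4.65, 5.91 and 7.54 CPM in SS and 7.10, 7.53 and 9.75 CPM in S24 (log2 fold change −0.43 ± 0.08, adjusted p = 1.2e-06), and was −0.33 ± 0.09 in CS against C24 (adjusted p = 0.0015). Kcnh6 (ERG2) had 3.11, 3.38 and 3.75 CPM in SS and 3.95, 4.20 and 4.74 CPM in S24, with no overlap (−0.33 ± 0.06, adjusted p = 5.0e-06), and −0.22 ± 0.07 in CS against C24 (adjusted p = 0.0044). Blood cell genes were lower in the 30 d mice as well, 3 of 3 in each contrast, with median log2 fold changes of −1.21 in SS against S24 and −1.25 in CS against C24, and their part in these values was not tested.

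**Figure D4:**
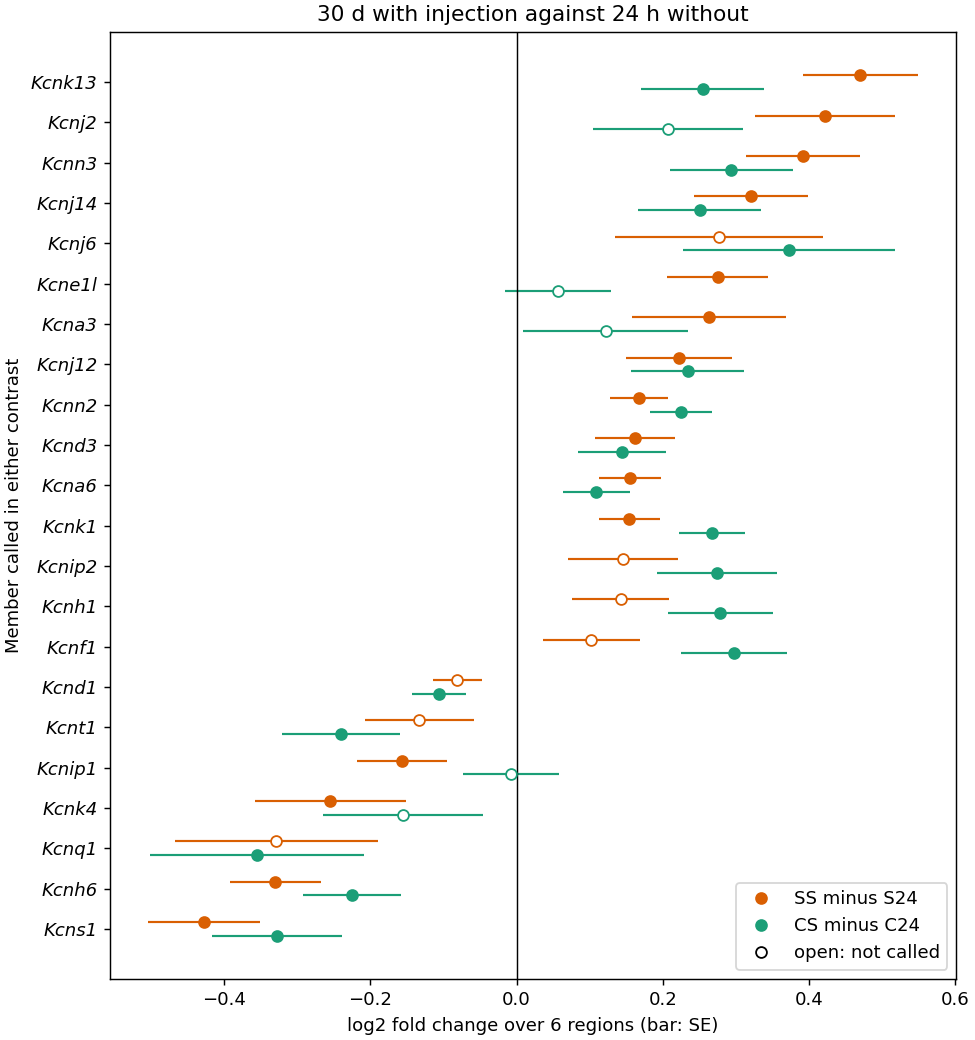
Log2 fold change over 6 regions with its SE for 22 of the members called in SS minus S24 (orange) or CS minus C24 (green), ordered by the first; open points were not called. Kcnk13 is at the top (0.47 and 0.25) and Kcns1 at the bottom (−0.43 and −0.33).

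Region by region, 28 members (35.4%) were called in at least 1 region in SS against S24, where 32.4% of all genes were, and 26 (32.9%) in CS against C24, where 29.8% were. The CS against C24 count was 16 with no filter on low counts and 18 to 31 when single libraries of the smaller groups were left out. The calls lay in BLA (13 higher and 1 lower in SS against S24, 12 and 0 in CS against C24), PFC (7 and 4, then 6 and 5) and CPu (4 and 3, then 5 and 4). NAc had 0 and then 1, vHipp 1 and then 0, and VTA 0 in both, with 9 and 6 unadjusted p-values under 0.05 in VTA. Of all genes, 16.7% and 9.72% were called in BLA in the 2 contrasts, 14.3% and 11.3% in PFC, 16.9% and 22.7% in CPu, 3.79% and 8.83% in NAc, 2.72% and 4.59% in vHipp, and 2.51% and 3.99% in VTA. With 78 members tested in each of BLA, PFC and CPu, the members' counts were near that share in PFC and below it in CPu. In BLA the count was near it in SS against S24, which shows nothing particular to the members. In CS against C24 the BLA count was above it, and that difference was not tested.

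In CPu, Kcnn2 had 21.2, 23.6 and 29.1 CPM in SS and 16.5, 19.2 and 23.3 CPM in S24 (log2 fold change 0.37 ± 0.08, SE, adjusted p = 0.00067), and 22.8, 25.3 and 29.2 CPM in CS against 17.5, 19.6 and 21.2 CPM in C24 (0.39 ± 0.08, adjusted p = 0.00039). The CS and C24 values did not overlap. Kcnf1 in CPu was 0.38 ± 0.07 in CS against C24 (adjusted p = 0.00018) and 0.26 ± 0.07 in SS against S24 (adjusted p = 0.0074). Kcnn3 was 0.54 ± 0.14 in CPu for CS against C24 (adjusted p = 0.0046) and 0.53 ± 0.13 in PFC for SS against S24 (adjusted p = 0.0050), and Kcnj14 0.70 ± 0.15 in CPu for SS against S24 (adjusted p = 0.00096).

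In PFC, Kcns1 had 7.49, 9.77 and 11.1 CPM in SS and 10.6, 14.4 and 17.1 CPM in S24 (log2 fold change −0.57 ± 0.12, adjusted p = 0.0015), and Kcnh6 was −0.44 ± 0.12 (adjusted p = 0.0083). Kcnj11 had 11.4, 11.6, 11.6, 12.8 and 13.8 CPM in the 5 CS libraries of PFC and 13.4, 16.2 and 19.6 CPM (lowest, median, highest) in C24 (−0.42 ± 0.10, adjusted p = 0.0028). Kcnk1 had 78.96, 80.1, 81.4, 87.6 and 103 CPM in CS and 60.5, 67.1 and 80.8 CPM in C24 (0.34 ± 0.07, adjusted p = 0.0011). Kcnip2 in PFC had 87.4, 93.2, 98.3, 104.5 and 160.5 CPM in CS and 67.6, 79.1 and 87.7 CPM in C24 (0.45 ± 0.12, adjusted p = 0.011). All 3 overlapped between CS and C24. Without the highest CS library Kcnip2 was 0.28 and not called. Cell type markers differed in value between these PFC groups too. The striatal marker sum was 138, 234 and 995 CPM (lowest, median, highest) in CS and 134, 158 and 388 CPM in C24, and up to 580 CPM in SS and 161.3 CPM in S24. All 6 striatal markers had values above 0, with medians of 0.89 in CS against C24 and 0.79 in SS against S24, and 0 were called by edgeR, with 3 unadjusted p-values under 0.05 in each. The CS library with the most Kcnip2 also had the highest striatal sum, 995 CPM, and the next, at 104.5 CPM of Kcnip2, had the lowest of the 5 CS libraries. The library with the most Kcnip2 also had the highest oligodendrocyte marker sum of the 5, 13620 CPM, and was among those that stand apart. The 6 oligodendrocyte markers had a median of 1.08 in SS against S24, with sums of 2739, 5627 and 14770 CPM in SS and 1531, 2257 and 6587 CPM in S24; 0 were called and 4 had an unadjusted p under 0.05. Other lists held calls. In SS against S24, 2 of 6 astrocyte, 1 of 3 ependymal and 1 of 5 choroid plexus markers were higher. Lower there were 1 of 6 markers of endothelium and pericytes and 2 of 3 blood cell genes. In CS against C24, 2 of 6 markers of endothelium and pericytes were lower, and of 5 microglial markers 1 was higher and 1 lower. The part of these cells in the PFC values was not tested.

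In NAc the 1 call was Kcnn2, at 17.4, 22.9, 23.9, 29.1 and 29.5 CPM in CS and 17.3, 18.1 and 20.4 CPM in C24 (0.40 ± 0.10, adjusted p = 0.011), which was not called without 1 of the CS mice (0.33).

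BLA held the most calls in both contrasts. Kcnh1 had 59.2, 85.7 and 97.3 CPM (lowest, median, highest) in SS and 34.8, 48.3 and 66.5 CPM in S24 (0.76 ± 0.17, adjusted p = 0.0026). Kcnj12 had 5.75, 9.65 and 13.5 CPM in SS and 3.62, 4.19 and 7.28 CPM in S24 (0.91 ± 0.22, adjusted p = 0.0045), and Kcna4 14.5, 32.3 and 37.7 CPM in SS and 11.1, 14.5 and 20.2 CPM in S24 (0.91 ± 0.24, adjusted p = 0.0081). All 3 overlapped between the groups. Kcnj16, the glial partner of Kcnj10, was the 1 lower member, at 27.7, 34.9 and 38.8 CPM in SS and 39.6, 50.4 and 60.8 CPM in S24 (−0.56 ± 0.13, adjusted p = 0.0042), with no overlap. Of 6 astrocyte markers 4 were lower in the same contrast and none higher, and the median over the 6 was −0.41 on the log2 scale. Also lower were 4 of 5 leptomeningeal (median −1.004), 3 of 6 endothelial and pericyte (−0.398) and 2 of 3 ependymal markers (−2.18). So were 1 of 2 markers of oligodendrocyte precursors, 1 of 3 of dentate granule cells and 1 of 3 blood cell genes. Of 6 oligodendrocyte and 5 microglial markers 0 were called. The part of these cells in the Kcnj16 value was not tested.

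In CS against C24, Kcnk1 in BLA had 56.1, 62.0, 76.3, 79.2 and 89.4 CPM in CS and 47.2, 52.6 and 55.1 CPM in C24, with no overlap (0.47 ± 0.10, adjusted p = 0.0030). Kcng4 had 0.960, 1.18, 2.38, 2.77 and 7.33 CPM in CS and 0.637, 0.701 and 1.17 CPM in C24 (1.88 ± 0.39, adjusted p = 0.0020). Its highest library came from the CS mouse that had been left out for Kcnn2 in NAc, and without it the log2 fold change was 1.21 and still called.

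The striatal marker sum moved with these BLA groups. It was 190, 752 and 1282 CPM (lowest, median, highest) in SS and 141, 206 and 533 CPM in S24, and 134, 1090 and 1668 CPM in CS and 141, 296 and 738 CPM in C24. In SS against S24, 3 of 6 striatal markers were called higher, and the median of the 6 was 1.43 on the log2 scale. In CS against C24, 0 of 6 were called by edgeR and 5 had an unadjusted p under 0.05, with a median of 1.51. Of 3 markers listed for parvalbumin interneurons (Pvalb, Tac1 and Syt2), 2 were higher in each contrast. The median sum of this list was highest in VTA, at 602 CPM, and was 391 CPM in CPu and 348 CPM in NAc. The medians were 93.2, 53.6 and 56.5 CPM in BLA, PFC and vHipp. The part of these cells in the BLA values was not tested. Of the 11 members called higher in CPu and NAc, 5 were called higher in BLA of SS mice and 4 in BLA of CS mice, with median log2 fold changes of 0.42 and 0.56. Of the 20 tested members called lower in CPu and NAc, 0 and 2 were called higher, with medians of −0.06 and −0.09, and of the 47 others 8 and 6, with medians of 0.20 and 0.24. The comparison that grouped these members used the SS, CS and C24 libraries of BLA, so these counts are not independent of it. The part of striatal tissue in the BLA results was not tested.

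**Figure D5:**
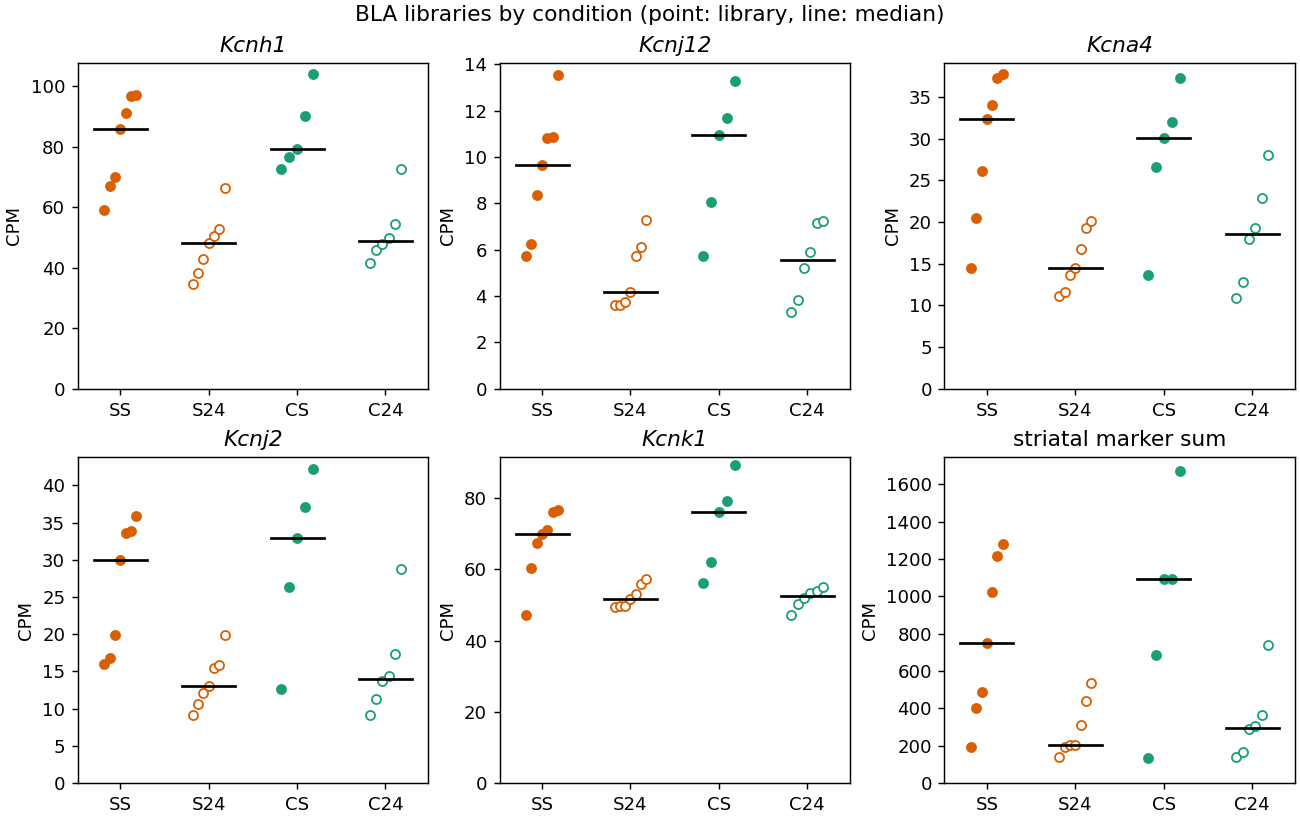
CPM of 5 members and summed CPM of 6 striatal markers in each BLA library of SS, S24, CS and C24 (points; line, median). Medians of Kcnh1, Kcnj12, Kcna4, Kcnj2 and Kcnk1 are higher in SS than S24 and in CS than C24, and so is that of the striatal marker sum (752 against 206 CPM, 1090 against 296 CPM).

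Whether the difference between 30 d and 24 h was itself unequal between regions was tested with an F test. In SS against S24 it passed for 8 members, where 7.7% of all genes passed: Kcna4 (adjusted p = 0.0018), Kcnj11 (0.0088), Kcnj2 (0.014), Kcnh1 (0.015), Kcnj12 (0.018), Kcna1 (0.025), Kcna5 (0.026) and Kcnab1 (0.049). A count of 8 in 79 is near that share, which shows nothing particular to the members. The F test is limma's, and the values that follow are from edgeR's fit of each region. In these, all 8 were highest in BLA, from 0.43 for Kcna1 to 0.94 for Kcna5 and Kcnj2. Kcnj2 was close behind in vHipp (0.85), and by the difference in mean log2(CPM + 0.5) it had 0.901 in vHipp and 0.896 in BLA, while the other 7 were highest in BLA on that scale too. In CPu the edgeR values were between −0.16 and 0.21. Kcnj11 was 0.51 ± 0.17 in BLA (SE, adjusted p = 0.038) and −0.30 ± 0.09 in PFC (adjusted p = 0.019), so it was called in opposite directions. In CS against C24 the test passed for 2 members, where 0.502% of all genes passed: Kcnh4 (adjusted p = 0.0018), at 1.03 ± 0.30 in BLA and −1.47 ± 0.54 in vHipp, of which the BLA value was called (adjusted p = 0.026), and Kcnj11 (0.040), again higher in BLA (0.52 ± 0.19, not called) and lower in PFC (−0.42 ± 0.10, called).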

How the data were processed

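Gene expression was measured by RNA sequencing. The deposited table holds whole-number read counts per gene for 230 libraries, and HTSeq, limma and mm10 are named in the submitters' processing notes. The strand setting of the counting is not given in the sources used here. Per the labels the molecule is polyA RNA, while the extraction text in the labels describes ribosomal RNA depletion.

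Libraries whose titles share a number were treated as tissue of 1 mouse. The labels do not say more about how mice were assigned, and p-values measure the spread between these libraries and mice. Library totals were 11866570 to 42135683 counts. Counts were scaled to CPM with TMM factors (edgeR 4.0.16, R 4.3.3).

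Region differences used edgeR's quasi-likelihood test (robust) on 187 libraries without S24, filterByExpr at a minimum count of 10, contrasts averaged over 5 conditions, and a call at a Benjamini-Hochberg adjusted p under 0.05 over all genes with an absolute log2 fold change of 1 or more. Differences between conditions used edgeR per region, and limma 3.58.1 on voom weights with the mouse as a block over all 230 libraries, called at an adjusted p under 0.05. The SE of an edgeR log2 fold change was derived from its F statistic. Same-mouse libraries had a median correlation of deviations of 0.0836 (232 of 486 pairs above 0.1), against −0.0130 between mice, and the fitted consensus was 0.0398. Sums of squares and mouse means used log2(CPM + 0.5). A library stood apart when its correlation with the median profile of its region lay more than 3 scaled median absolute deviations below the median of the region. The scripts were tested on simulated data.

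Alternatives were DESeq2 1.42.0, its size factors, limma voom, no filter on low counts, the mouse as a block or not, left-out libraries and no fold limit. The members, gene lists and marker lists were chosen with earlier results of these data known. The text names, by region comparison, the 6 called members with the largest change in each direction; by condition comparison, every called member, the 10 smallest p-values where more than 10 were called, or else the smallest p; the 5 highest members per region by CPM per kb; and 1 member of a family with none named. Codon windows and overlaps were read from GENCODE M21 on GRCm38. Some genes that these rules name are not reported here. Lists were described by counts and medians, with no test of a list.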

Additional observations from a re-analysis of the deposited data

Results flagged for a closer look

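Among 80 groups of 4 to 10 libraries or mice examined for named members, 6 had 1 value far from the others, where chance alone marks about 1 in 20 groups. That rate was not measured on these values, so no excess is read from the 6. In BLA 1 CS library had 7.33 CPM of Kcng4, with the next at 2.77 CPM, and 1 C24 library had 1.17 CPM of it, with the next at 0.833 CPM. In PFC 1 CS library had 160.5 CPM of Kcnip2, with the next at 104.5 CPM. Of the mouse means over regions, 1 SS mouse had 3.05 CPM of Kcnj14 (next 2.47 CPM), 1 SS mouse 90.8 CPM of Kcnk1 (next 82.4 CPM) and 1 CS mouse 11.5 CPM of Kcnj12 (next 9.64 CPM).

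The difference between 30 d and 24 h was unequal between regions, by the F test of limma, for 8 of 79 members in SS against S24 and 2 in CS against C24. Of all genes 7.7% and 0.502% passed. The SS against S24 count is near that share and shows nothing particular to the members. The CS against C24 count rests on 2 members, and its difference from the share was not tested. In SS against S24 the adjusted p was 0.0018 for Kcna4, 0.0088 for Kcnj11, 0.014 for Kcnj2, 0.015 for Kcnh1, 0.018 for Kcnj12, 0.025 for Kcna1, 0.026 for Kcna5 and 0.049 for Kcnab1. In CS against C24 it was 0.0018 for Kcnh4 and 0.040 for Kcnj11.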

How the results depend on the processing

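With no fold limit the members called grew to 76 for VTA, 72 for CPu and NAc, 57 for NAc against CPu, 59 for vHipp against PFC, 63 for BLA against PFC and 60 for BLA against vHipp, against 38, 32, 10, 19, 10 and 15 with it. Of all genes, 80.8% were called without it for VTA and 78.6% for CPu and NAc. The share of all genes is not given for the other comparisons, so those counts say nothing particular about the members. Under the other 6 settings of the region fits, among them the mouse as a replicate block (38, 32, 10, 19, 11 and 15), each count stayed within 1.5 times. Of the 66 named region differences, the direction turned in 1: Kcnj13 in BLA against vHipp, −2.76, was 0.17 without the libraries that stand apart and −0.85 with limma voom; the cause was not tested. Over the 6 regions SS against S24 gave 26 members without those libraries and 20 without the replicate block, against 15, and CS against C24 gave 20 and 19, against 19. The shares of all genes under these settings are not given here. All 20 named members of these contrasts kept their direction and call under 6 settings each. In single regions CS against C24 gave 16 members with no filter on low counts, against 26, and 18 to 31 when each of 18 libraries was left out in turn. The 0 counts of the 7 cocaine contrasts stayed 0 under every setting run, and 0 to 0 in the 6 of them in which libraries of groups of up to 5 were left out in turn. Of 20 named single-region differences 4 values fell out of the call, among them Kcnn2 in NAc and, under 2 settings, Kcnip2 in PFC. The limit of 1 CPM kept 79 members on either scaling, and 2 CPM would keep 75. Depth limits the members near 1 CPM, such as Kcne4, Kcnh8, Kcnq1 and Kcnmb1.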

Other observations

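Genes that act with potassium channels but carry other symbols were followed as a list of 15, of which 14 were tested. In NAc against CPu the BK gamma subunit Lrrc38 (log2 fold change 1.10) was higher. In vHipp against PFC the Kv4 partner Dpp10 (−1.71), Lrrc38 (−1.38) and Lrrc55 (−1.28) were lower. BLA was higher than PFC in Hcn4 (1.81) and lower in Lrrc38 (−1.54), and higher than vHipp in Hcn4 (1.91), Dpp10 (1.42) and Lrrc55 (1.14). Over the 6 regions Dpp10 was lower in SS than S24 (−0.15), and in CS against C24 Hcn3 (0.17) and Lrrc55 (0.24) were higher and Abcc9, a regulatory subunit of ATP-sensitive channels, was lower (−0.21). No partner was called in C24 against S24.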
